A study of Mus musculus with 17 samples.

Results

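The genes that write, erase and process DNA methylation were followed in the cortex of chronically stressed and control mice. They were the DNA methyltransferases Dnmt1, Dnmt3a and Dnmt3b, the TET dioxygenases Tet1, Tet2 and Tet3, and the GADD45 adaptors Gadd45a, Gadd45b and Gadd45g, taken by gene symbol. These were 9 of the 36293 genes in the bulk count files and 9 of the 37608 genes in the single-nucleus tables, and all 9 were found in both. Nuclear RNA was sequenced in bulk from punches of the medial prefrontal cortex (mPFC) of 4 control and 5 stressed mice at postnatal day 90. Single nuclei of the neocortex were profiled by sNucDrop-seq, a droplet method that counts transcripts by unique molecular identifiers (UMIs), in 4 control and 4 stressed mice at postnatal day 80. All were males labelled C57BL/6, of the substrain C57BL/6J by the study's methods. Chronic unpredictable stress (CUS) consisted of 3 changing stressors a day for 12 days. Tissue for the nuclei was taken a day after the last stressor, and the bulk mice were sampled a day after behavioural tests that followed it. Controls were kept in another room and were handled every day, so housing and handling cannot be told apart from stress. The design asked which transcripts of the cortex differ after CUS, and the nuclei add in which cells these genes are transcribed.

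DNA methylation is the addition of a methyl group to cytosine. Dnmt3a and Dnmt3b place it on unmethylated DNA, and Dnmt1 copies it to the new strand after replication. Neurons no longer divide but keep adding methyl groups after birth, also outside CG pairs, through DNMT3A. The TET enzymes oxidise the methyl group to hydroxymethylcytosine, which is abundant in the brain, and further to bases that thymine DNA glycosylase cuts out and base excision repair replaces. The GADD45 proteins are small stress and activity induced proteins that have been tied to this repair and to stress kinase signalling. Gadd45b is an immediate early gene of neurons.

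In the mm10 assembly with the GENCODE vM21 annotation, the enzymes are long genes made up mostly of introns, and the GADD45 genes are short and mostly exonic. Dnmt1 (ENSMUSG00000004099) lies at chr9:20907209-20959888 on the minus strand and exons cover 14% of its span. Dnmt3a (ENSMUSG00000020661) lies at chr12:3806007-3914443 on the plus strand and is 15.3% exonic. Dnmt3b (ENSMUSG00000027478), at chr2:153649450-153687730 on the plus strand, is 13.3% exonic. Tet1 (ENSMUSG00000047146) is at chr10:62804570-62908996, Tet2 (ENSMUSG00000040943) at chr3:133463679-133545139 and Tet3 (ENSMUSG00000034832) at chr6:83362373-83459084, all on the minus strand and 14.8%, 20.7% and 17.3% exonic. Gadd45a (ENSMUSG00000036390) occupies chr6:67035096-67037457 on the minus strand. Gadd45b (ENSMUSG00000015312) occupies chr10:80930073-80932204 and Gadd45g (ENSMUSG00000021453) chr13:51846678-51848468, both on the plus strand. Each GADD45 gene has at most 4 exons in a transcript, and exons cover 74.7%, 74.5% and 65.5% of the spans of Gadd45a, Gadd45b and Gadd45g. Dnmt1, Tet1 and Tet3 hold small genes on their own strand, so a part of their counts may belong to those genes. Dnmt3a, Dnmt3b, Tet2, Tet3 and Gadd45a overlap an annotated gene on the other strand. This may add to their counts in bulk, where the use of strand is not stated. For the nuclei, the study's methods describe taking reads on the predicted strand of a gene.

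The promoters of the 3 GADD45 genes are shown as the regulatory sequence of the short, inducible members, which are described by nuclear class further on. They are the 250 bases before the RefSeq transcript start (GRCm38.p6), written 5′ to 3′ on the gene's strand. Capitals mark matches on either strand to the octamer ATGCAAAT, the E-box CACGTG, the CCAAT box CCAAT and the TATA box TATAAA, and no matches overlap.
Gadd45a (chr6:67037408-67037657, minus strand): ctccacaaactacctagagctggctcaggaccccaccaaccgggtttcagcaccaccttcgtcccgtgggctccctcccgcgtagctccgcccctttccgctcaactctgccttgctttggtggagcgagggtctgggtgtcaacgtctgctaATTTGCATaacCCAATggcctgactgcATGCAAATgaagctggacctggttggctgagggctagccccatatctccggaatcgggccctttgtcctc
Gadd45b (chr10:80929841-80930090, plus strand): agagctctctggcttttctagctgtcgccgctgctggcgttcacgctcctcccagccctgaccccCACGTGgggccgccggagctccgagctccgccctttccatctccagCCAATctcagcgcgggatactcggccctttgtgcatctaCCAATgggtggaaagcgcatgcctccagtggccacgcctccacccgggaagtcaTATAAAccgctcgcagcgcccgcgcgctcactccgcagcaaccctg
Gadd45g (chr13:51846425-51846674, plus strand): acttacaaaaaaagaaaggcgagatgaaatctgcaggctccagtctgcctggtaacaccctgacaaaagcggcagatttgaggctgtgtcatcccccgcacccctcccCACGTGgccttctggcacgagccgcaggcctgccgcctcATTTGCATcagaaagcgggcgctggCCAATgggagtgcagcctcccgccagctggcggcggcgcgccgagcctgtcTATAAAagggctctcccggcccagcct

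The Gadd45a promoter held the octamer 2 times, 97 and 70 bases before the start, on either side of a CCAAT box at 86. The Gadd45g promoter held it at 103 bases, with a CACGTG at 142, a CCAAT box at 78 and a TATA box at 27. The Gadd45b promoter held no octamer but a CACGTG at 185, CCAAT boxes at 139 and 100 and a TATA box at 46. Of all 32817 RefSeq promoters of this length, 1.603% held the octamer, 6.021% CACGTG, 33.833% CCAAT and 12.372% TATAAA. The cyclic AMP response element TGACGTCA, present in 1.548% of promoters, was in none of the 13 promoters of the 9 genes. The octamer and TATAAA matched no promoter of a methyltransferase or TET gene. CG pairs, the bases that carry most DNA methylation, varied widely among the enzyme promoters, several of which lay within or below the GADD45 range. The Tet2 promoter held 51 CG pairs, more than 99.9% of promoters, against a median of 6 over all promoters. The 3 Dnmt1 promoters held 26, 7 and 2, the 3 Dnmt3a promoters 38, 40 and 15, Dnmt3b 21, Tet3 17 and Tet1 15, and the GADD45 promoters 11 to 22. A match describes letters only and says nothing of binding.

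Each bulk library held 26188825 to 30525015 reads in genes, and 18394 genes passed the low-count filter. Mice of a group differed by more than sampling noise in all 16 pairs. The 8 single-nucleus libraries left 26626 of 40000 barcodes, with 1933 to 4230 nuclei and 4678403 to 12426541 UMIs a mouse. Libraries shared 0 to 9 barcodes a pair. Leaving out the second CUS mouse raised the number of genes called in the summed nuclei from 1 to 793 and the number summed over 21 classes from 122 to 1525, so the changes of Dnmt3a, Tet2 and Tet3 over all nuclei, and the changes described by mouse for Tet2, Tet3 and for Dnmt1 in non-neuronal nuclei, are also given without that mouse. The nuclear fits carry no batch term, because the labels do not say which mouse was in which of the batches that the study's methods describe and fit, so a batch effect was not removed from them. Markers of neurons, glia and vessels were all detected in bulk. In bulk, markers of several cell types shifted. Of the 8 astrocyte markers 3 were called lower, and their summed level was 853 to 1025 CPM (reads scaled to a common library total) in controls and 650 to 848 CPM in CUS. Of the 8 striatal markers 1 was called higher, with sums of 678 to 1165 CPM in controls and 1163 to 1406 CPM in CUS, while the median change of the 8 was -0.83 on the log2 scale. One of 4 claustrum markers was called lower, with sums of 67.4 to 76.0 CPM in controls and 54.4 to 59.5 CPM in CUS, as was 1 of 4 markers of new oligodendrocytes (153 to 166 against 138 to 152 CPM) and 1 of 8 of oligodendrocytes (272 to 641 against 288 to 364 CPM, median change -0.51). Markers of other lists called in bulk were 1 lower and 1 higher of 4 for Ndnf interneurons and 1 lower of 3 tested for choroid plexus. Fewer cells of a type and less RNA per cell cannot be told apart in bulk, and the part of these shifts in the values below was not tested.

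At the level of the whole mPFC, Tet2, Tet3 and Dnmt3a were the most abundant of the 9 transcripts. Per kilobase of gene span, which counts intronic RNA, mean levels over 9 mice were 1.54 CPM for Tet2, 1.37 for Tet3, 1.35 for Dnmt3a, 1.03 for Gadd45b, 0.909 for Gadd45g and 0.826 for Dnmt1. Gadd45a stood at 0.434, Tet1 at 0.1997 and Dnmt3b at 0.0699 CPM per kilobase of span. Per kilobase of exon the order was Dnmt3a at 8.82, Tet3 at 7.92, Tet2 at 7.45 and Dnmt1 at 5.90, with Gadd45g at 1.39, Gadd45b at 1.38 and Tet1 at 1.35 close together, and Gadd45a at 0.582 and Dnmt3b at 0.523 lowest. On either length, Tet1 was the lowest TET transcript and Dnmt3b the lowest methyltransferase. Whether the bulk counts took in introns is not given in the sources used here, so the order between the long and the short genes depends on the length chosen.

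None of the 9 genes was called changed by CUS in bulk (edgeR's quasi-likelihood test, Benjamini-Hochberg FDR of 0.05), where 3.29% of all tested genes were called, 2.13% lower and 1.16% higher. The groups overlapped for each of the 9 genes, against 8.76% of all tested genes whose groups did not overlap. One gene of the 9, Tet2, had an unadjusted p under 0.05, as did 21.5% of all tested genes. The fitted change was below 0 for 6 genes and above 0 for 3, where 48.7% of all tested genes were below 0, with a median of -0.07 on the log2 scale, against 0.01 for all tested genes.

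**Figure D1:**
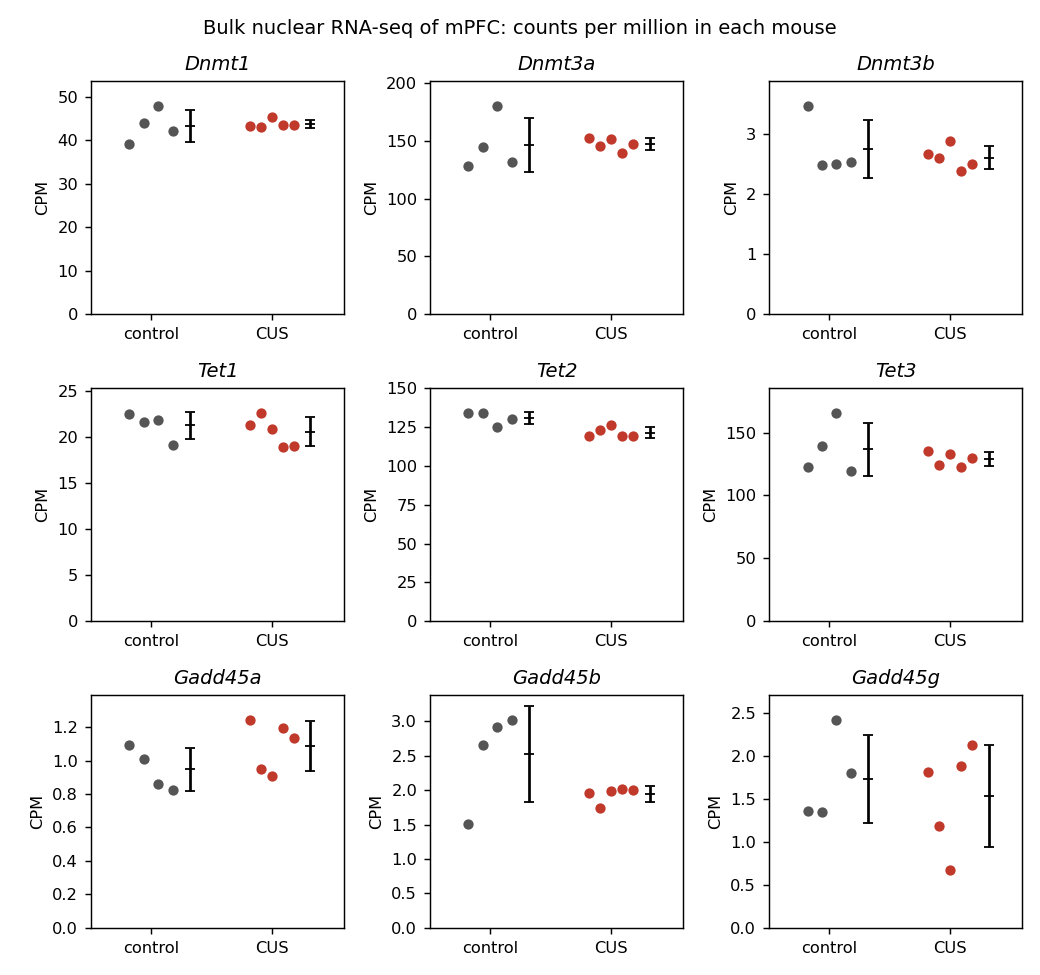
Bulk nuclear RNA of the mPFC, in CPM (vertical axes start at 0) for each of the 9 genes. Each point is 1 mouse, 4 control and 5 CUS, and bars give the mean and SD. The groups overlap in every panel, and the control mice spread widely for Gadd45b, from 1.51 to 3.03 CPM.

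Of the methyltransferases, Dnmt1 and Dnmt3a had fitted changes of 0.01 each. Dnmt1 levels in the control mice were 39.1, 44.0, 47.9 and 42.2 CPM, and in the CUS mice 43.2, 43.1, 45.3, 43.4 and 43.5 CPM. The CUS mice lay inside the range of the controls, with means of 43.3 ± 3.68 (SD, n = 4) and 43.7 ± 0.884 (SD, n = 5). The log2 fold change was 0.01 (SE 0.06, 95% interval -0.12 to 0.14, edgeR adjusted p = 0.926). Dnmt3a was at 129, 144, 180.1 and 132 CPM in controls and 152, 146, 152, 139 and 148 CPM in CUS mice. The third control was above every other mouse and the first and the fourth control were below every CUS mouse. The fitted change of Dnmt3a was 0.01 (SE 0.09, edgeR adjusted p = 0.964). Dnmt3b was low, at 2.49 to 3.47 CPM in controls and 2.39 to 2.90 CPM in CUS, with a change of -0.07 (SE 0.14, edgeR adjusted p = 0.812).

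All 3 TET genes had fitted changes below 0 and none was called. Tet2 levels were 134, 134, 125 and 130.2 CPM in controls and 119, 123, 127, 119 and 119 CPM in CUS mice. The third CUS mouse was above the lowest control, and the other CUS mice were below all controls. The means were 130.9 ± 4.16 (SD, n = 4) and 121.5 ± 3.38 CPM (SD, n = 5), a log2 change of -0.11 (SE 0.05, 95% interval -0.21 to -0.00387) with an unadjusted p of 0.0431 in edgeR and an adjusted p of 0.216. Tet3 was at 122, 139, 166 and 119 CPM in controls and 136, 124, 133, 123 and 129 CPM in CUS, and again the third control was the highest mouse. Its change was -0.08 (SE 0.09, edgeR adjusted p = 0.623), and 0.0158 without that control. Tet1 ranged from 19.1 to 22.5 CPM in controls and from 18.9 to 22.6 CPM in CUS, a change of -0.05 (SE 0.07, edgeR adjusted p = 0.745).

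Gadd45b had the lowest fitted change of the 9 genes, and its call turned on 1 control mouse. The control mice held 1.51, 2.66, 2.91 and 3.03 CPM, from 40, 79, 78 and 92 reads, and the CUS mice 1.96, 1.74, 1.99, 2.02 and 2.00 CPM, from 55, 44, 59, 61 and 58 reads. The first control was below every CUS mouse, and the other 3 controls were above them all. The log2 change was -0.38 (SE 0.18, 95% interval -0.78 to 0.01, unadjusted p = 0.0579, edgeR adjusted p = 0.251). Without the first control it was -0.57 with an edgeR adjusted p of 0.0400, which passed the threshold. Gadd45a, at 0.822 to 1.09 CPM in controls and 0.909 to 1.24 CPM in CUS, had a change of 0.20 (SE 0.18, edgeR adjusted p = 0.572). Gadd45g spread widely in both groups, from 1.35 to 2.43 CPM in controls and from 0.674 to 2.13 CPM in CUS, with a change of -0.17 (SE 0.29, edgeR adjusted p = 0.786). The GADD45 values rest on 20 to 92 reads a mouse, which limits the differences that could be seen.

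Of 43 further genes of the pathway, 41 were tested in bulk, 2 were called lower and none was called higher by edgeR's quasi-likelihood test. Over all tested genes 3.29% were called. Of the 41, 8 had an unadjusted p under 0.05, against 21.5% of all tested genes, 3 had groups that did not overlap, against 8.76%, and the median change was -0.01. These counts were near those of all genes. One of the 7 methylated-DNA readers was called, Mbd2, a reader that recruits the NuRD repressor complex. Mbd2 was at 75.5, 75.4, 68.9 and 76.6 CPM in controls and 63.6, 65.7, 65.4, 61.5 and 62.3 CPM in CUS, with every CUS mouse below every control. Its log2 change was -0.22 (SE 0.05, edgeR adjusted p = 0.0399). One of the 6 TET partners and cofactor genes was called, Idh1, an isocitrate dehydrogenase that makes the 2-oxoglutarate TET enzymes use. Idh1 was at 15.4, 15.2, 11.5 and 14.6 CPM in controls and 10.9, 11.4, 11.6, 11.1 and 10.2 CPM in CUS, with the third control inside the range of the CUS mice. Its change was -0.36 (SE 0.09, edgeR adjusted p = 0.0474). Both adjusted p values lie close to the threshold, and these 2 calls were not followed under the alternative fits.

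The other roles held no called gene. The 5 maintenance partners ranged from -0.46 for Uhrf1, which brings DNMT1 to newly copied DNA, to 0.04 for Usp7, which stabilises DNMT1. Of the 11 tested genes of excision repair, 8 were fitted higher and 3 lower, from -0.34 for the uracil glycosylase Ung to 0.24 for the endonuclease Apex1. The thymine DNA glycosylase Tdg, which removes the bases TET enzymes make, had a change of 0.15 with groups that did not overlap and an edgeR adjusted p of 0.235. Mbd1, another reader, likewise did not overlap (0.16, edgeR adjusted p = 0.122). The 8 genes of the methyl donor cycle lay between -0.10 and 0.11, the 3 GADD45 partners between -0.03 and 0.29, and Trdmt1, a methyltransferase relative that acts on RNA, at 0.03.

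In the nuclei, graph clustering gave 26 clusters, and the 21 classes with over 200 nuclei were compared. Names such as L6-like were given where marker genes led a cluster, and other clusters go by a leading gene. The 9 genes and the pathway genes were kept out of the clustering. Levels are UMIs of a gene as CPM of all UMIs of a mouse's nuclei in a class. They are compared between classes for 1 gene, not between genes. Free RNA from broken nuclei was not modelled.

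**Figure D2:**
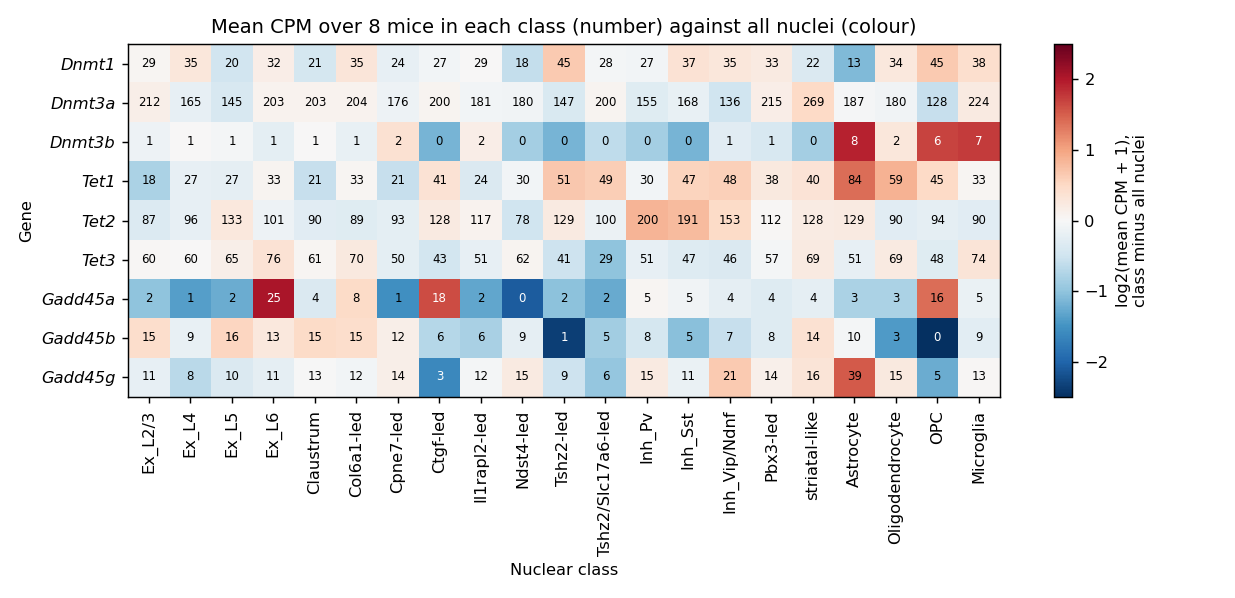
Heat map of the mean level over 8 mice in each of 21 nuclear classes (columns) for the 9 genes (rows). Numbers are CPM and colours give log2(mean CPM + 1) of the class minus that of all nuclei. Tet2 is highest in the Pv-like and Sst-like classes, Tet1 and Gadd45g in the astrocyte-like class and Gadd45a in the L6-like class.

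Tet2 was highest in 3 classes of inhibitory interneurons. It reached 200.1 ± 29.4 CPM (SD, n = 8 mice) in Pv-like and 190.8 ± 26.1 CPM in Sst-like nuclei, and 153 ± 37.2 CPM in Vip/Ndnf-like nuclei. In each of these classes all 8 mice were above their own level over all nuclei, which averaged 110.2 ± 10.2 CPM. In L2/3-like excitatory nuclei, at 86.5 ± 4.06 CPM, no mouse was. The other inhibitory classes, striatal-like at 128 ± 20.7 CPM and Pbx3-led at 112 ± 21.4 CPM, were below L5-like nuclei at 133 ± 24.6 CPM and astrocyte-like nuclei at 129 ± 14.5 CPM. The lowest class was the Ndst4-led class at 78.1 ± 21.3 CPM. Summed over all inhibitory classes but the striatal-like one, Tet2 was at 165.7 ± 14.4 CPM, against 98.99 ± 10.1 CPM in excitatory and 106.2 ± 16.8 CPM in non-neuronal nuclei. It was higher in inhibitory nuclei in 8 of 8 mice against both, with log2 differences of 0.74 and 0.65 (exact paired permutation tests, two-sided, p = 0.00781, the smallest 8 mice allow, adjusted p = 0.0422 over 27 pairs).

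Tet1 followed another order, with the highest level in astrocyte-like nuclei. In astrocyte-like nuclei the 8 mice ran from 50.1 to 108 CPM with a median of 84.9 CPM, above all nuclei in 8 of 8 mice. Oligodendrocyte-like nuclei followed at 58.6 ± 21.4 CPM (SD, n = 8), while OPC-like nuclei at 44.6 ± 25.4 CPM and microglia-like nuclei at 32.6 ± 19.6 CPM were within the range of the neuronal classes. L2/3-like nuclei were lowest, from 14.8 to 22.4 CPM with a median of 16.9 CPM, so the highest L2/3-like mouse was below the lowest astrocyte-like mouse. Non-neuronal nuclei held 60.9 ± 10.1 CPM, inhibitory 39.0 ± 7.68 CPM and excitatory 26.5 ± 3.64 CPM. Excitatory nuclei were lowest in 8 of 8 mice (exact paired permutation, adjusted p = 0.0422 against each), and non-neuronal nuclei exceeded inhibitory nuclei in 7 of 8 (adjusted p = 0.0469).

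The mean of Tet3 ran from 76.0 ± 13.4 CPM in L6-like nuclei to 29.0 ± 22.6 CPM in the Tshz2/Slc17a6-led class, and none of its 3 comparisons between excitatory, inhibitory and non-neuronal nuclei passed the test. The largest of these, excitatory minus inhibitory, was 0.24 ± 0.30 on the log2 scale (SD over 8 mice, exact paired permutation, adjusted p = 0.146). The inhibitory sum leaves out the striatal-like class, at 72.7 CPM in control and 66.0 CPM in CUS mice.

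Dnmt3a was detected in all neuronal and glial classes. It was highest in striatal-like nuclei, from 235 to 352 CPM with a median of 260.4 CPM, and 8 of 8 mice were above their level over all nuclei there. L2/3-like nuclei, at 212 ± 35.7 CPM, were also above it in 8 of 8 mice. Vip/Ndnf-like nuclei at 136 ± 17.5 CPM and L5-like nuclei at 145 ± 24.0 CPM were below it in every mouse. Among glia, OPC-like nuclei had the lowest mean of all classes, with 145 CPM in control and 112 CPM in CUS mice from 80 UMIs. Microglia-like nuclei held 215 CPM in control and 232 CPM in CUS mice. Excitatory, inhibitory and non-neuronal nuclei held 188, 169.9 and 180.3 CPM, and no pair passed the exact paired permutation test (lowest adjusted p = 0.211). The inhibitory sum leaves out the striatal-like class, the highest for Dnmt3a, and a sum that includes it was not tested.

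Dnmt1 and Dnmt3b gave fewer UMIs, 1893 and 84 in all nuclei. Dnmt1 was at 32.2 ± 2.85 CPM in inhibitory nuclei without the striatal-like class and 28.4 ± 2.58 CPM in excitatory nuclei. It was higher in these inhibitory nuclei in 7 of 8 mice (log2 difference 0.18, exact paired permutation, adjusted p = 0.0469). The striatal-like class left out was lower, at 21.7 CPM in control and 22.2 CPM in CUS mice from 101 UMIs. A sum that includes it was not tested. Astrocyte-like nuclei had the lowest mean, 12.7 ± 9.96 CPM from 23 UMIs. Dnmt3b was at 5.42 ± 3.55 CPM in non-neuronal nuclei from 23 UMIs and at 0.415 ± 0.610 CPM in inhibitory nuclei from 4 UMIs, higher in 7 mice with none the other way (adjusted p = 0.0469). It had 0 UMIs in Sst-like, Ctgf-led and Tshz2-led nuclei, which allows up to 1.70, 1.73 and 3.23 CPM.

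Gadd45a and Gadd45g led in different classes, and Gadd45b had no single leading class. Gadd45a was at 24.7 ± 11.5 CPM in L6-like nuclei (SD, n = 8, 148 UMIs), from 12.1 to 44.4 CPM with a median of 22.04 CPM. The Ctgf-led class was next at 18.3 ± 10.3 CPM from 33 UMIs. With control mice only, the Ctgf-led class was the highest. In both classes 8 of 8 mice were above all nuclei, at 5.27 ± 1.87 CPM. OPC-like nuclei, from oligodendrocyte precursors, averaged 15.6 CPM but from 14 UMIs, with 4 of 8 mice above all nuclei, and the remaining classes were at or below 7.71 CPM. Summed over excitatory nuclei Gadd45a was at 5.45 ± 2.06 CPM, close to 4.71 ± 2.43 CPM in inhibitory nuclei (exact paired permutation, adjusted p = 0.422).

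Gadd45g was highest in astrocyte-like nuclei, from 22.8 to 55.4 CPM with a median of 36.3 CPM and 68 UMIs, above all nuclei in 8 of 8 mice. Vip/Ndnf-like nuclei followed at 20.7 ± 12.3 CPM, and the Ctgf-led class was lowest at 3.47 ± 6.54 CPM. Non-neuronal nuclei, at 22.8 ± 4.01 CPM, were above excitatory nuclei, at 11.1 ± 1.97 CPM, in 8 of 8 mice (log2 difference 0.98, exact paired permutation, adjusted p = 0.0422). Their difference from inhibitory nuclei did not pass (adjusted p = 0.0575 by that test). The other glial classes were lower than the astrocyte-like one. Control and CUS means were 18.3 and 12.1 CPM in oligodendrocyte-like, 14.0 and 11.9 CPM in microglia-like and 2.24 and 7.35 CPM in OPC-like nuclei. Gadd45b was higher in excitatory than in inhibitory nuclei without the striatal-like class, with 11.3 ± 2.34 CPM in excitatory and 7.04 ± 2.73 CPM in inhibitory nuclei, in 7 of 8 mice (log2 difference 0.67, exact paired permutation, adjusted p = 0.0469), and its difference between excitatory and non-neuronal nuclei, 0.85, did not pass (adjusted p = 0.151). The striatal-like class left out of that sum was at 14.2 ± 6.31 CPM. Its means in L5-like, claustrum-like, Col6a1-led and L2/3-like nuclei were all between 14.8 and 16.0 CPM, and OPC-like nuclei had 0 UMIs, which allows up to 4.55 CPM.

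**Figure D3:**
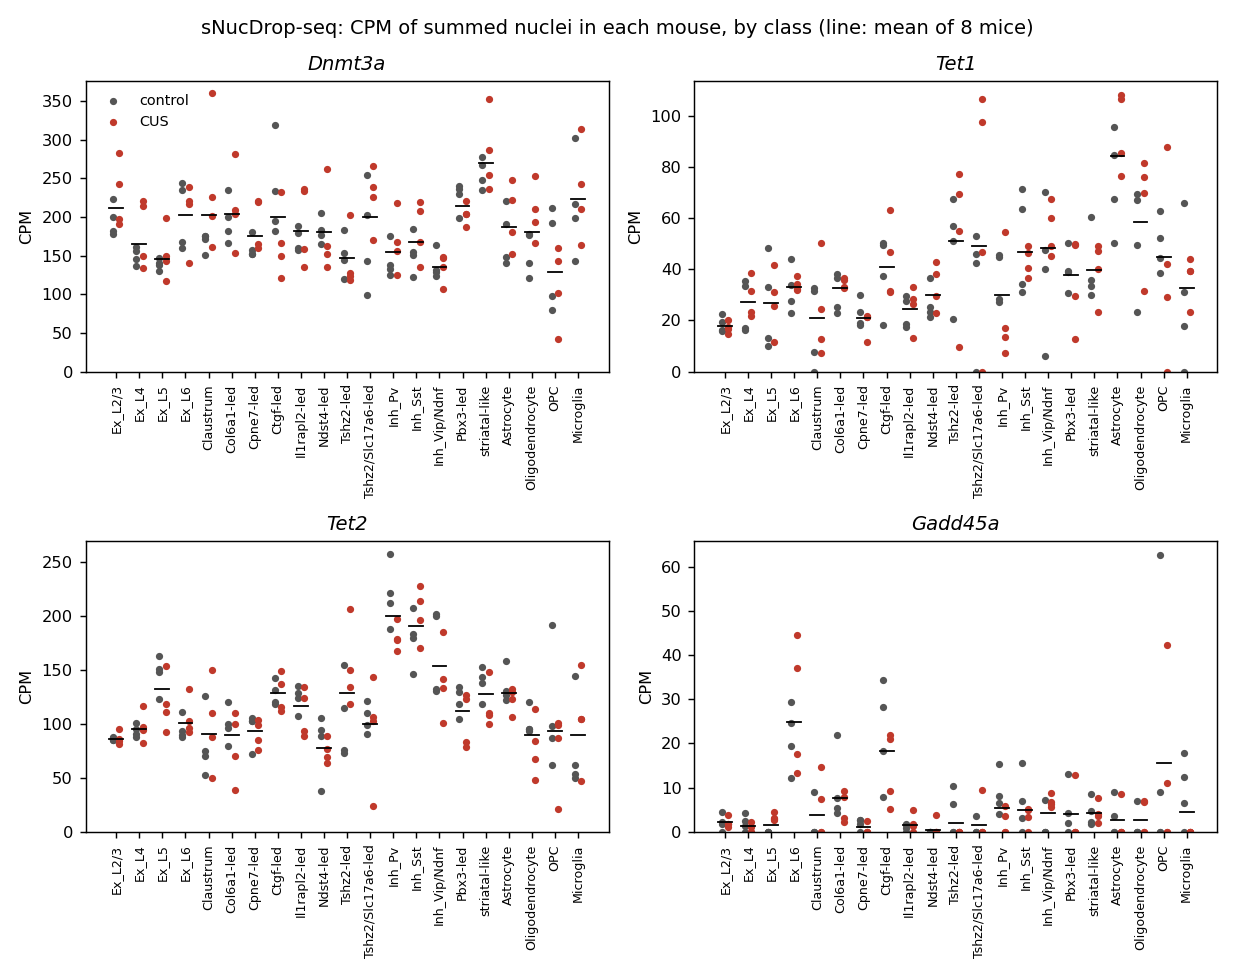
Levels of Dnmt3a, Tet1, Tet2 and Gadd45a in the summed nuclei of each mouse by class, in CPM, with control mice in grey and CUS mice in red. Lines mark the mean of 8 mice. All 8 mice are at 168 CPM or above for Tet2 in the Pv-like class, and at 12.1 CPM or above for Gadd45a in the L6-like class.

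Classes next to each other in level were compared within each gene in 180 pairs. An exact paired permutation test over 8 mice cannot go below 0.00781, so adjustment over so many pairs left almost no room to pass, and the absence of a pair past it says nothing about the differences. By unadjusted exact p under 0.05 there were 2 pairs of 180, with 0 without the fourth CUS mouse and 5 without the first control. A share of 2 in 180 is below the 0.05 of the cut itself, so these 2 pairs do not stand out. The order of neighbouring classes given by their means is therefore a description only. The 2 pairs were Gadd45g in astrocyte-like over Vip/Ndnf-like nuclei (log2 difference 1.00 ± 0.96, SD over 8 mice, exact p = 0.0391) and Tet2 in Sst-like over Vip/Ndnf-like nuclei (0.34 ± 0.41, exact p = 0.0391). Over 13 named classes and among the 7295 genes that reached 50 CPM in at least 1 of them, the genes whose level was most like Tet2 were Acat1, a mitochondrial thiolase (r = 0.925), Grip1, a glutamate receptor scaffold (r = 0.915), and Uqcr10, a subunit of respiratory complex III (r = 0.908). For Dnmt3a they were Tesc (r = 0.866), Dclk3 (r = 0.855) and Ppp1r9b (r = 0.814), and for Tet3 Baiap2 (r = 0.898), Gm38413 (r = 0.897) and Mkl2 (r = 0.893). The classes share libraries and differ in depth, and these r are descriptions only.

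CUS and control nuclei were then compared with UMIs summed per mouse. Over all nuclei, Dnmt3a, Tet2 and Tet3 passed the filter and none was called (edgeR, FDR of 0.2), where 0.0199% of 5015 tested genes were called. The log2 changes were 0.10 for Dnmt3a (edgeR adjusted p = 0.804), -0.11 for Tet2 (0.698) and 0.08 for Tet3 (0.771), and without the second CUS mouse 0.03, -0.07 and 0.07. Over all fits without a mouse Dnmt3a ranged from 0.0199, without the first CUS mouse, to 0.19, without the third CUS mouse, Tet2 from -0.19 to -0.06 and Tet3 from 0.04 to 0.11. The summed level of 4 inhibitory markers over all nuclei was 938 to 1101 CPM in controls and 754 to 914 CPM in CUS, with none of the 4 called, and striatal-like nuclei made up 8.3 to 11% of nuclei in controls and 2.6 to 9.7% in CUS. Choroid plexus markers summed to 9.58 to 17.7 CPM in controls and 18.9 to 236 CPM in CUS. Endothelial and mural sums reached 25.6 and 23.9 CPM in controls and 133 and 99.8 CPM in CUS. No marker of these lists passed the filter. Without the striatal-like nuclei the changes were 0.12 for Dnmt3a, -0.09 for Tet2 and 0.11 for Tet3. The part of these marker shifts in the changes of Dnmt3a, Tet2 and Tet3 was not tested. The first and second CUS mice had the highest Dnmt3a levels, 235 and 219 CPM. Without the filter all 9 genes had a value and none was called, where 0.825% of 36473 genes were. The fitted changes of the 9 genes then lay between -0.13 for Tet2 and 0.11 for Gadd45g, apart from Dnmt3b, at 0.50 with an SE of 0.42. Gadd45b was at -0.06 (SE 0.19) and Dnmt1 at -0.11 (SE 0.14).

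**Figure D4:**
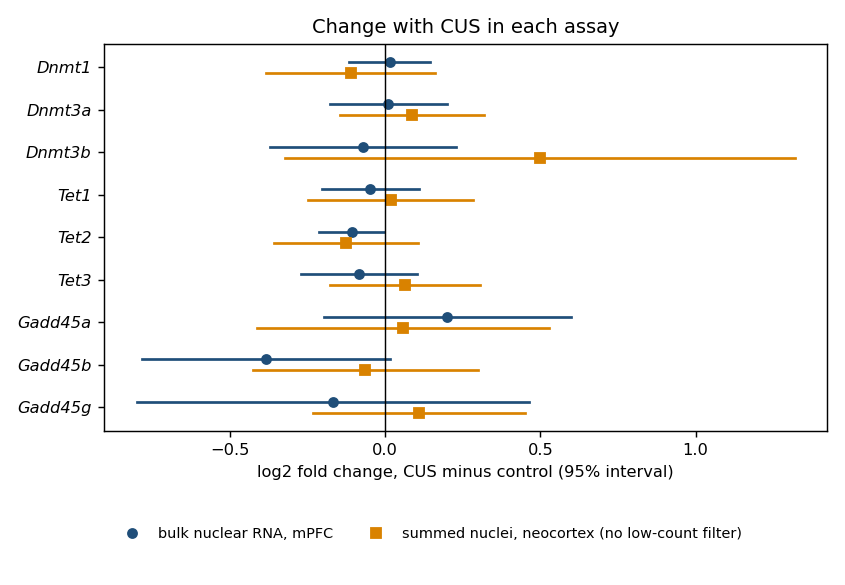
Log2 fold change of each gene, CUS minus control, in bulk nuclear RNA of the mPFC (circles, 4 against 5 mice) and in summed neocortical nuclei without a low-count filter (squares, 4 against 4 mice). Lines are 95% intervals from edgeR. The interval for Tet2 in bulk, -0.21 to -0.00387, is the only 1 that lies on 1 side of 0, and no change passed the adjusted test.

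By class, 61 of 189 gene and class pairs passed the filter, those of Dnmt3a and Tet2 in 21 classes each, Tet3 in 15 and Tet1 in 4, and none was called by edgeR, where 0.123% of all tests over the classes were. Of the 21 classes the L2/3-like class had the most called genes, 84 or 1.64% of those tested. One pair, Dnmt3a in the Tshz2/Slc17a6-led class, had an unadjusted p under 0.05, as did 6.17% of all tests (0.64, edgeR unadjusted p = 0.0465, adjusted p = 0.997). Dnmt3a was fitted higher in 16 classes and lower in 5, Tet2 lower in 15 and higher in 6, and Tet3 higher in 9 and lower in 6. These classes come from the same mice and are not independent.

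The lowest p values for Tet2 were in the Pv-like class, where it was fitted lower, and in the Tshz2-led class, where it was fitted higher. In the Tshz2-led class its change was 0.57 (SE 0.32, edgeR unadjusted p = 0.0839, adjusted p = 0.992). In the Pv-like class controls held 212, 258, 222 and 188 CPM and CUS mice 179, 178, 168 and 197 CPM, so that 1 CUS mouse was above the lowest control. The means were 219.7 ± 28.9 and 180.5 ± 12.2 CPM (SD, n = 4 each), and the change was -0.29 (SE 0.17, edgeR unadjusted p = 0.0831, adjusted p = 0.956). It was -0.32 without the second CUS mouse and -0.34 to -0.20 over all fits without a mouse. Scaled by edgeR's TMM factors, in place of total UMIs, the groups did not overlap, as for 3.18% of tested genes there. The lowest p for Tet3 was in the L2/3-like class, with 35.5, 60.1, 59.9 and 57.6 CPM in controls and 76.1, 54.1, 70.4 and 69.1 CPM in CUS, a change of 0.31 (SE 0.17, edgeR unadjusted p = 0.0774, adjusted p = 0.483). It was 0.36 without the second CUS mouse and 0.18 without the first control, which held the lowest level. Over all excitatory nuclei Tet3 was at 51.4, 59.2, 55.0 and 56.8 CPM in controls and 67.9, 61.0, 60.0 and 65.5 CPM in CUS. There every CUS mouse was above every control. The groups did not overlap, in either direction, for 5.48% of all tested genes, and 0.0756% of all tested genes were called. The change of Tet3 was 0.18 (SE 0.09, edgeR unadjusted p = 0.0762, adjusted p = 0.547), or 0.17 without the second CUS mouse. In bulk mPFC the fitted change of Tet3 was -0.08, and 0.0158 without the third control.

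The 128 pairs that did not pass the filter rest on few UMIs, and 124 of them had a value in a fit without a filter. None passed an FDR of 0.2 in edgeR, as 0.0488% of all such tests did. The lowest adjusted p was 0.679. Of the 124, 6 had an unadjusted p under 0.05, a share near the 4.08% of all such tests. The pairs named here and below are therefore descriptions only. These included Gadd45b in L5-like nuclei, with 4, 6, 16 and 5 UMIs in controls and 6, 3, 2 and 5 UMIs in CUS (-1.10, edgeR unadjusted p = 0.0271, adjusted p = 0.700), and Gadd45g in claustrum-like nuclei, with 3, 4, 3 and 3 UMIs against 0, 0, 0 and 2 UMIs. Gadd45a and Dnmt3b in L5-like nuclei had 0 UMIs in all 4 controls and 6 and 4 UMIs in CUS. The remaining pairs were of Dnmt1. In L6-like nuclei Dnmt1 was at 38.0, 41.1, 44.2 and 26.9 CPM in controls and 23.6, 24.7, 33.9 and 21.98 CPM in CUS (-0.64, edgeR unadjusted p = 0.0139, adjusted p = 0.711).

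Dnmt1 in oligodendrocyte-like nuclei had the lowest p of these pairs. There controls held 9, 13, 13 and 1 UMIs and CUS mice 1, 1, 1 and 2 UMIs, or 121, 45.9, 56.3 and 11.7 CPM against 6.80, 10.5, 8.73 and 13.8 CPM. The fourth control was within the range of the CUS mice and the other 3 were above it. The change was -2.42 (SE 0.65, edgeR unadjusted p = 0.000183, adjusted p = 0.740), where 2.81% of genes had an unadjusted p under 0.05 in that fit, and leaving out each mouse in turn gave -2.67 to -2.11. In the other glial classes the change of Dnmt1 was 0.06 (SE 0.68) in astrocyte-like, -0.23 (SE 0.68) in microglia-like and -0.67 (SE 0.66) in OPC-like nuclei. Over all non-neuronal nuclei controls held 13, 24, 26 and 15 UMIs of Dnmt1 and CUS mice 20, 7, 9 and 6, or 52.6, 28.7, 35.2 and 39.9 CPM against 24.7, 20.4, 22.3 and 10.4 CPM. Every CUS mouse was below every control. These sums include the oligodendrocyte-like UMIs, 9, 13, 13 and 1 in controls and 1, 1, 1 and 2 in CUS mice. The values over non-neuronal nuclei are therefore not separate from that class, which was picked for its lowest p. Whether the groups also differ without that class was not tested. Dnmt1, with 120 UMIs, did not pass the low-count filter in this sum. The shares given here are therefore of all 26440 genes fitted without a filter, while 3399 genes passed it. Of the 26440, the groups did not overlap for 1.83%, 4.76% had an edgeR unadjusted p under 0.05 and 0.393% were called. The 1.83% was counted on TMM-scaled CPM, while the Dnmt1 levels here are scaled by total UMIs. It takes in genes with very few UMIs, and the share among genes with about as many UMIs as Dnmt1 was not counted. The change of Dnmt1 was -0.92 (SE 0.34, 95% interval -1.58 to -0.26, edgeR unadjusted p = 0.00596, adjusted p = 0.557), or -1.13 to -0.71 without each mouse in turn and -0.96 without the second CUS mouse. Oligodendrocyte-like nuclei made up 19.2 to 39.4% of non-neuronal nuclei in controls and 18.7 to 25.5% in CUS, and astrocyte-like nuclei, with the lowest Dnmt1, 33.5 to 49.2% and 40.6 to 50.4%. The part of these shares in the difference was not tested.

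**Figure D5:**
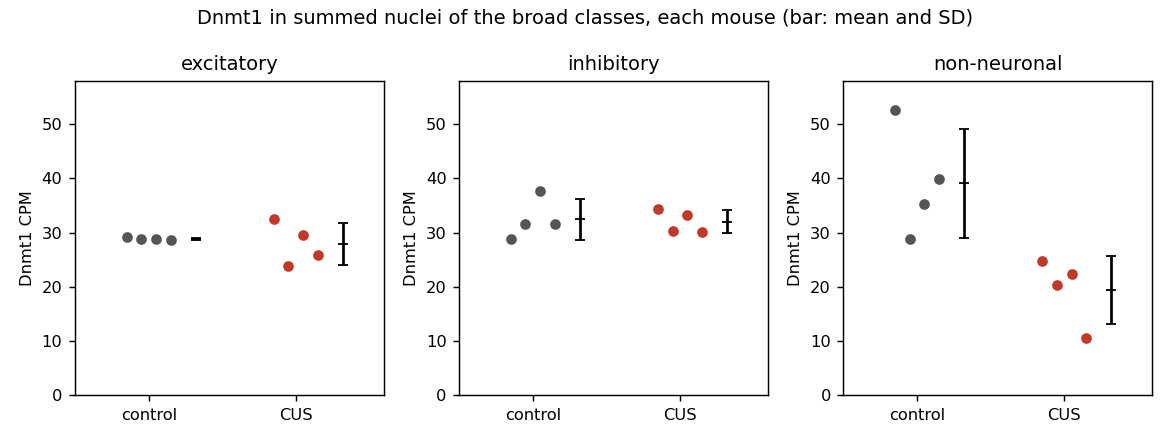
Dnmt1 level in the summed excitatory, inhibitory (without striatal-like) and non-neuronal nuclei of each mouse, in CPM on axes that start at 0, with bars for the mean and SD of 4 mice. Control and CUS mice do not overlap in non-neuronal nuclei, at 28.7 to 52.6 CPM against 10.4 to 24.7 CPM. The non-neuronal sum includes the oligodendrocyte-like class, and a sum without that class was not tested. Dnmt1 did not pass the low-count filter in any of these sums.

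The change of Dnmt1 in excitatory nuclei exceeded that in non-neuronal nuclei by 0.94 on the log2 scale, and that in inhibitory nuclei exceeded it by 0.99 (exact permutation of 4 against 4 mice, two-sided, p = 0.0286 each, the smallest this design allows). These were 2 of 27 such differences over the 9 genes, and both are taken against the same non-neuronal values. Those values include the oligodendrocyte-like class, picked for its lowest p, and were not tested without it. Neither passed after adjustment over the 27 (adjusted p = 0.386 by the same test). With so high a smallest p the adjustment left almost no room to pass, so it cannot decide whether the changes differ. In bulk mPFC and over all nuclei, which are mostly neuronal, the fitted change of Dnmt1 was 0.01 and -0.11.

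The wider pathway gave 302 gene and class pairs with 9 to 20 genes a class, and none was called at an FDR of 0.2, where 0.123% of all tests over the classes were. By edgeR 12 had an unadjusted p under 0.05, against 6.17% of all tests, and the smallest adjusted p was 0.553. Over all nuclei 14 of the 43 genes were tested, 7 fitted lower and 7 higher, with a median of 0.00, and none was called. Polb, the polymerase that fills the gap in base excision repair, was singled out after its values were seen. It was fitted higher in 18 of 21 classes and lower in 3, with a lowest edgeR adjusted p of 0.567. The unadjusted p was under 0.05 in 5 of these classes, which share their mice, against 6.17% of all tests. Mat2a, a methionine adenosyltransferase of the methyl donor cycle, was fitted higher in 19 of 21 classes with an unadjusted p under 0.05 in 1. The tally of Polb was thus not the most one-sided of the pathway. Because the classes share mice, no change is read from such tallies. The change of Polb over all nuclei was 0.20 (edgeR unadjusted p = 0.0647, adjusted p = 0.590).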

How the data were processed

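Bulk nuclear RNA (4 control, 5 CUS mice) was prepared with a stranded total RNA kit after ribosomal depletion, and the authors aligned it to mm10 with STAR and deposited raw read counts per gene. For sNucDrop-seq (4 mice a group) the authors deposited raw UMI counts per gene and barcode, exonic and intronic. Groups came from the sample labels, 1 mouse a sample, so n counts mice. The study's methods describe a strong batch effect in the nuclei and fit batch. The labels do not give it, so no fit here has a batch term. The 9 genes, the 43 pathway genes and the marker lists were chosen with earlier results of these data known.

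Counts were tested with edgeR 4.0.16 (quasi-likelihood, TMM, R 4.3.3) at an FDR of 0.05 in bulk, after filterByExpr, and of 0.2 in nuclei, for genes with more UMIs in a sum than 10% of its number of nuclei. Barcodes needed 600 to 5000 detected genes and less than 5% of UMIs from mitochondria, those that scored over 0.2 as doublets were dropped, and the rest were clustered in scanpy 1.11.5 (resolution 1) and named where at least 3 markers were raised, with limits set after the clusters, but not the groups, were seen. All 9 genes were named in every comparison. Sums over excitatory, inhibitory and non-neuronal nuclei, the tests between them and the fits leaving out a mouse for Dnmt1 and Tet3 in them were chosen after seeing the data. Levels were compared as log2(CPM + 1) by exact paired sign-flip permutation over 8 mice. Bulk CPM used TMM-scaled library sizes and nuclear CPM total UMIs, while fold changes came from the fits. On simulated counts with known changes, the bulk test recovered 78.5% of 200 genes changed 2-fold over 18394 tested, with 8.19% of calls false. Smaller changes were not simulated. Alternatives were a likelihood ratio test, DESeq2 1.42.0, no TMM, no filter, a replicate block and leaving out each mouse. Intervals of counts cover counting error and mouse spread as the model fits them. Promoters came from RefSeq.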

Additional observations from a re-analysis of the deposited data

Results flagged for a closer look

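In 90 groups of 4 or 5 mice (9 genes, each over the bulk data, all nuclei and the sums over excitatory, inhibitory and non-neuronal nuclei), 6 held a mouse far from the others by Dixon's test, where chance gives about 1 in 20. In bulk these were Dnmt1 at 45.3 CPM in the highest CUS mouse, Dnmt3b at 3.47 CPM in the highest control and Gadd45b at 1.74 CPM in the lowest CUS mouse. In nuclei they were Dnmt3a at 205.9 CPM in inhibitory nuclei of the highest CUS mouse, Dnmt3b at 0.662 CPM in inhibitory nuclei of the only control with a UMI, and Gadd45g at 16.5 CPM over all nuclei of the highest control.

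For Dnmt1, 2 differences in change with CUS between kinds of nuclei had an unadjusted p under 0.05. The change was 0.94 higher on the log2 scale in excitatory than in non-neuronal nuclei and 0.99 higher in inhibitory than in non-neuronal nuclei (exact permutation, two-sided, p = 0.0286 each). This is the smallest p that 4 against 4 mice allow. Neither passed after adjustment over 27 such differences, where the lowest adjusted p was 0.386. With that smallest p there was almost no room to pass, so the adjustment cannot decide whether the changes differ. Both differences use the same non-neuronal values. These include the oligodendrocyte-like class, which was picked for its lowest p, and were not tested without it. The differences are therefore not shown to hold for non-neuronal nuclei in general.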

How the results depend on the processing

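Where they were tested, none of the 9 genes was called under any alternative in the summed nuclei or the classes. With the low-count filter of the main fits, only Dnmt3a, Tet2 and Tet3 were tested in the summed nuclei, and only these and Tet1 in classes. The fit without a filter took in all 9. In bulk, leaving out each mouse gave 0 to 1 called genes of the 9, the 1 being Gadd45b without the first control. The 606 genes called in bulk became 1330 by the likelihood ratio test, 1366 by DESeq2, 238 with the replicate block and 133 to 1508 without each mouse. The 1 gene called in summed nuclei became 18 by the likelihood ratio test, 21 by DESeq2, 301 without a filter and 1 to 793 without each mouse (793 without the second CUS mouse). The 122 calls summed over classes became 287 by the likelihood ratio test, 52 by DESeq2, 72 without TMM, 233 without a filter, 358 with the replicate block, 4 in the 3 sums over kinds of nuclei and 48 to 1525 without each mouse (1525 without the second CUS mouse). Alternatives were followed for 15 values. These were the 9 genes in bulk, Dnmt3a, Tet2 and Tet3 over all nuclei, Tet2 in Pv-like and L5-like nuclei and Tet3 in L2/3-like nuclei. Of 224 alternative values, 212 kept direction and side of the threshold, 11 reversed, all in bulk, and 1 passed the threshold. The remaining genes had no nuclear value among these, so the count does not compare the stability of bulk and nuclei. In bulk without TMM, Dnmt1 was at -0.0121 and Dnmt3a at -0.0130. Without each mouse in bulk, Dnmt1 ranged from -0.0358 to 0.0580, Dnmt3a from -0.0500 to 0.12, Dnmt3b from -0.12 to 0.0531, Tet1 from -0.0874 to -0.0201, Tet3 from -0.14 to 0.0158, Gadd45g from -0.32 to 0.0242 and Gadd45b from -0.57 to -0.28. The same highest class was found for 5 of 9 genes with clustering at resolution 0.6 and for 6 or more under the other settings, and for Dnmt3a, Tet1 and Gadd45g under every setting.

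The labels do not say whether same-numbered mice share more than a number. Their deviations correlated at 0.03 to 0.23 in bulk and -0.46 to 0.40 in nuclei. In bulk 4 of 8 mice and in nuclei 2 of 8 correlated best with their own number. These values do not settle whether the numbers mark pairs. The cause of the moved counts was not tested. Low UMI counts limit Dnmt3b and the GADD45 genes.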
